A study of Mus musculus with 8 samples.

Results

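CD95, the death receptor encoded by Fas, was followed together with its ligand and the proteins that carry or block death receptor signals. The set held 9 genes of the 25006 gene identifiers in the deposited counts. They were chosen by name, as the ligands Fasl and Tnfsf10, the receptors Fas, Tnfrsf10b and Tnfrsf1a, the adaptors Fadd and Ripk1, the caspase Casp8 and its inhibitor Cflar, and were found by mapping Ensembl identifiers to mouse symbols. All 9 passed the filter on low counts, which kept 15310 genes. The 9 genes, like all other gene lists used here, were chosen with earlier results of these data known. Counts of their calls are therefore no independent test against all genes.

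RNA was sequenced from tumors of 4T1 cells, a mammary carcinoma line of Balb/c origin of the triple-negative type. The cells had been placed in the mammary fat pad of NSG or Balb/c mice, and tumors were collected no later than day 20. NSG mice lack mature T, B and NK cells, whereas Balb/c mice are immunocompetent. The wild-type tumors came from the parental line and from a line expressing vCas9, and the CD95 knockout tumors from CRISPR/Cas9 clones 54 and 69, so that each of the 4 combinations of host and CD95 status held 2 libraries of 2 different lines. The age of the mice, and the number of tumors behind a library, are not given in the sources used here. The knockout lines were clones and the wild-type lines were not described as clones, so clonal origin and CD95 status cannot be told apart. Host cells of either strain keep their own Fas gene. The p-values rest on the spread between the libraries of a group, which are of different lines. The spread between tumors of the same line in the same host was not measured. The libraries held 8.68 M to 19.66 M counts each (M for mega). All 8 epithelial markers (such as Krt8 and Epcam) were read in all 8 libraries, with a summed level from 717.8 to 3888 CPM, the customary unit of counts scaled to the library total.

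Death receptors are members of the TNF receptor superfamily that carry a cytoplasmic death domain. On ligand binding, CD95 and the TRAIL receptor recruit the adaptor FADD, which brings in procaspase-8; the procaspase is activated there and starts the cleavage cascade of apoptosis, while cFLIP, the product of Cflar, joins the same complex and limits it. TNF receptor 1 first assembles a membrane complex around RIPK1, where ubiquitin chains direct the signal to NF-kappaB and survival, and from which RIPK1 can pass into complexes that cause apoptosis or necroptosis. CD95 ligand and TRAIL are used by activated T cells and NK cells to kill target cells, and CD95 also carries signals in tumor cells that do not end in death.

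The stretch directly before the RefSeq gene start is shown for both ligands, because they rose together in the Balb/c host, and for Fas, because it is the targeted gene. Each is 250 bases long, 5′ to 3′ on the gene's strand, from RefSeq in the GRCm38.p6 build, at chr1:161788496-161788745 (minus strand) for Fasl, chr3:27316827-27317076 (plus strand) for Tnfsf10 and chr19:34290409-34290658 (plus strand) for Fas. RefSeq and GENCODE, from which the gene positions given with each gene come, place the start of Fasl at the same base. The RefSeq start of Tnfsf10 lies downstream of the GENCODE start, so that the end of its window is inside the gene as GENCODE draws it, and the RefSeq start of Fas lies shortly upstream. Capitals mark matches to the motifs described after the sequences, and TTTCC is GGAAA read on the other strand.
Fasl: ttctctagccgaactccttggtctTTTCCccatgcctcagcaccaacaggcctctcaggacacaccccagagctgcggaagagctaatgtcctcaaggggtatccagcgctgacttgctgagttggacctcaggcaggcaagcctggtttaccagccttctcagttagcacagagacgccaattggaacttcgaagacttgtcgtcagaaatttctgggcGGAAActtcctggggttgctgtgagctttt
Tnfsf10: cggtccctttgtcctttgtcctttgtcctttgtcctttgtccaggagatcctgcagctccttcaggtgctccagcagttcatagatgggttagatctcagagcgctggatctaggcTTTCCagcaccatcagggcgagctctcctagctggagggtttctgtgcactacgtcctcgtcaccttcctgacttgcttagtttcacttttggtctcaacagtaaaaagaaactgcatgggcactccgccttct
Fas: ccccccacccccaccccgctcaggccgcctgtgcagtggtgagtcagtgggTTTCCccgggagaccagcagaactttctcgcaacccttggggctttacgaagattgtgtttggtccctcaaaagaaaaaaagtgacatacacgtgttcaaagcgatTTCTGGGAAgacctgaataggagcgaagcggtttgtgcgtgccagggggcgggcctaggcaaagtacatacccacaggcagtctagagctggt

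Both strands were searched for 4 motifs in these windows. The NFAT core GGAAA was found in the Fasl window at -226 and -30, in the Tnfsf10 window at -134 and in the Fas window at -199, where a position is that of the leftmost base relative to the gene start. This short motif was present in 55.6% of all 32851 RefSeq windows of the same length. The STAT palindrome TTCNNNGAA was found in the Fas window at -93 and in 7.02% of all windows. The interferon regulatory factor pair (GAAA, any 2 bases, GAAA), present in 2.98% of all windows, and the NF-kappaB consensus, present in 3.9%, had no match in the windows of the 8 members with a RefSeq entry. No marked match overlaps another, and the sequences are those of the reference strain, not of 4T1 cells. A match describes the letters and is no evidence of binding.

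The hosts were compared first. NSG and Balb/c mice differ in strain background as well as in immune competence, and these cannot be told apart here. In wild-type tumors Fasl, Tnfsf10, Tnfrsf1a, Ripk1 and Cflar were higher in Balb/c than in NSG tumors, and Fas, Casp8, Tnfrsf10b and Fadd did not pass the test. A gene is said to have risen, fallen or been called where its adjusted p in edgeR's quasi-likelihood test (Benjamini-Hochberg over the 15310 genes) was under 0.05. Thus 5 of 9 members were called, all higher, where 31.5% of all genes tested were called and 15.3% were called higher. The libraries of the groups did not overlap for 9 of 9 members, as for 76.4% of all genes. The median log2 fold change was 0.80 over the members and -0.08 over all genes. Each line had been grown in both hosts, and with the line fitted as a replicate block 3 of 9 members (Fasl, Tnfsf10 and Ripk1) were called. The same 3 were called without the parental library in NSG or without either wild-type library in Balb/c, and 2 of them, Fasl and Tnfsf10, without the vCas9 library in NSG.

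In knockout tumors the same host comparison called 4 of 9 members, against a background of 31.1% of all genes. Fasl, Tnfsf10 and Ripk1 were higher in Balb/c, a direction in which 15.7% of all genes were called, and Tnfrsf10b was lower, a direction in which 15.4% were called. Groups did not overlap for 7 of 9 members and for 64.2% of all genes, and the medians were 0.47 and 0.02. The 3 genes called in both genotypes made up 60.0% of the calls in wild-type tumors and 75.0% of those in knockout tumors. The matching shares over all genes were not computed, so these percentages have no background beside them. With the replicate block Fasl, Tnfsf10 and Ripk1 were called and Tnfrsf10b was not, at an adjusted p of 0.0777 in edgeR's test.

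**Figure D1:**
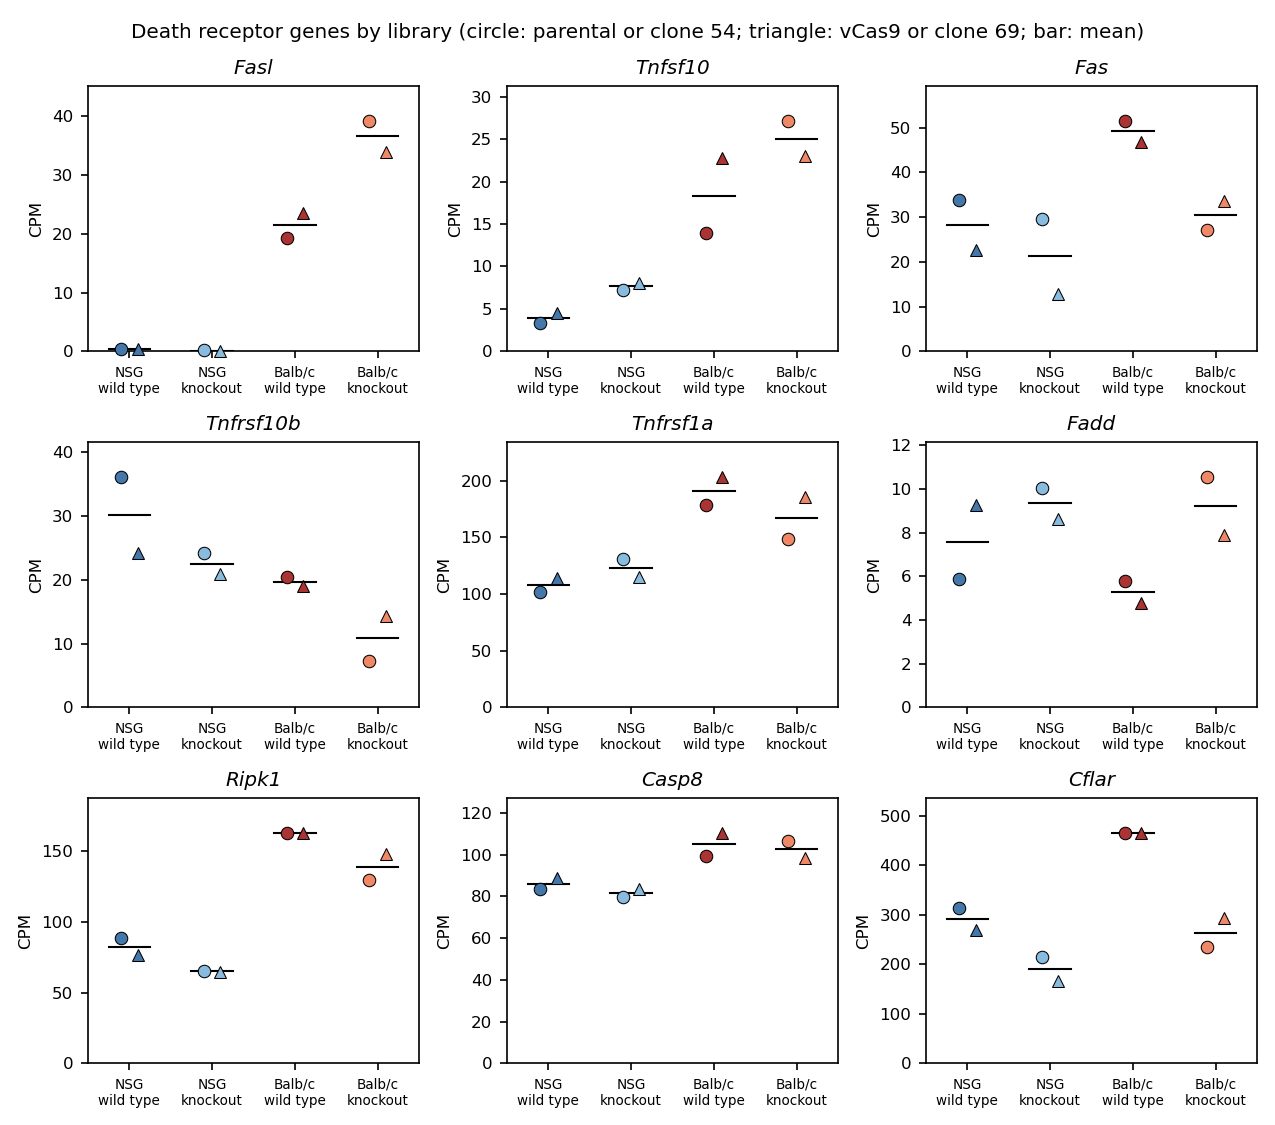
Level of each of the 9 genes in CPM (y axes, each from 0) in the 8 libraries, by host and CD95 status (x axes); symbols are single libraries, circles for the parental line or clone 54 and triangles for the vCas9 line or clone 69, and bars are means of 2. Fasl is between 0 and 0.414 CPM in NSG tumors and between 19.35 and 39.3 CPM in Balb/c tumors, and Cflar is lower in the knockout than in the wild-type libraries of each host.

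Fasl (ENSMUSG00000000817; chromosome 1, 161780689 to 161788495 in GRCm38) encodes CD95 ligand. It was read at 0.346 and 0.414 CPM in NSG wild-type tumors, 0.214 and 0 CPM in NSG knockout tumors, 19.35 and 23.55 CPM in wild-type tumors of Balb/c mice, and 39.3 and 34.0 CPM in knockout tumors of Balb/c mice. Every Balb/c library was far above every NSG library, where the gene was near the level of 3 counts (0.208 to 0.321 CPM in NSG). The 4 NSG libraries held 5, 5, 2 and 0 counts.

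Between wild-type groups 568 counts stood against 10, which after scaling by library size is a 57.5-fold difference with an exact 95% interval of 31.0 to 120.5. The fitted log2 fold change was 5.79 ± 0.42 (SE), with an adjusted p of 0.000424 in edgeR's test. In knockout tumors 1209 counts stood against 2, a ratio of 359.7 with an interval of 99.35 to 2973, and the adjusted p was 0.000238 in edgeR's test. The fitted log2 value there, 8.34, rests on the 2 counts of clone 54 in NSG. It was 7.36 when clone 69 in NSG was left out and 11.96 when clone 54 in NSG was left out. These intervals cover counting error only. Within all 14 alternatives for the wild-type and all 15 for the knockout tumors Fasl was called higher in Balb/c.

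Markers of the cells that use CD95 ligand moved with it. The 13 T cell markers summed to 6.42 to 13.0 CPM in NSG and 580.2 to 704.9 CPM in Balb/c tumors, and all 13 were called higher in Balb/c in each genotype. The 10 NK and cytotoxic markers summed to 1.79 to 9.52 CPM in NSG and 245.6 to 470.1 CPM in Balb/c tumors, and 10 of 10 were called higher in wild-type and 9 of 10 in knockout tumors. Ncr1, a receptor of NK cells, was at 0 counts in all 4 NSG libraries, and Prf1, which encodes perforin, was at 0 in 3 of them. In RNA of whole tumors, fewer cells of a type and less RNA per cell cannot be told apart.

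Fasl was also set against these 23 markers together. Its CPM was 2.20% and 2.40% of the summed markers in NSG wild type, 1.34% and 0% in NSG knockout, 2.04% and 2.29% in Balb/c wild type, and 3.58% and 2.93% in Balb/c knockout. The NSG values rest on at most 5 Fasl counts each, and their exact 95% intervals were wide, from 0.715% to 5.14% in the parental library. These intervals take the marker sums as exact. The marker sums in NSG were also small, with 60 to 174 T cell and 18 to 89 NK and cytotoxic marker counts. Of the 10 NK and cytotoxic markers, 4 to 6 were at 0 counts in each NSG library. The shares therefore do not compare Fasl per cell between hosts. In Balb/c both knockout shares were above both wild-type shares. Relative to the 10 NK and cytotoxic markers alone, the Balb/c groups overlapped, at 7.88% and 5.24% in wild type and 8.99% and 7.23% in knockout tumors, and the NSG wild-type shares of 9.435% and 9.80% were above both Balb/c wild-type shares. Relative to the 13 T cell markers alone, the share was 2.87% and 3.18% in NSG wild type, within the Balb/c wild-type values of 2.745% and 4.06%, and 5.955% and 4.93% in Balb/c knockout. The comparison of shares between hosts thus depended on the markers used. These shares were chosen after the values were seen and were not tested.

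**Figure D2:**
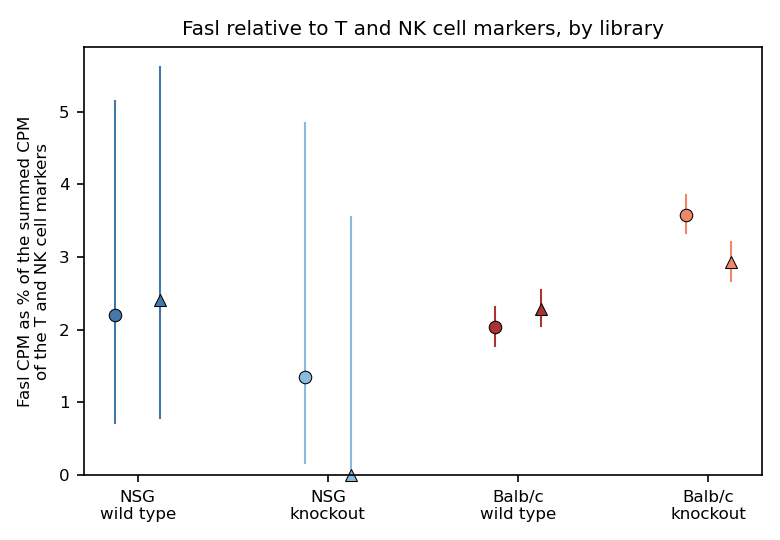
Fasl CPM as a percentage of the summed CPM of 23 T and NK cell markers (y axis) in each library, by group (x axis); circles are the parental line or clone 54, triangles the vCas9 line or clone 69, and lines exact 95% intervals for counting error. The NSG wild-type shares are 2.20% and 2.40%, the Balb/c wild-type shares 2.04% and 2.29%, and the Balb/c knockout shares 3.58% and 2.93%. The marker sums, taken as exact, rest on few counts in NSG, so the shares do not compare Fasl per cell between hosts.

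The genes whose profile over the 8 libraries was most like that of Fasl were Klrd1, Pdcd1 and Il2rb. Klrd1 encodes an NK cell receptor chain, Pdcd1 the checkpoint receptor PD-1, and Il2rb a chain of the IL-2 and IL-15 receptors. The root mean square difference of centred log2 CPM was 0.34 for Klrd1, 0.39 for Pdcd1 and 0.45 for Il2rb, against a median of 3.25 over all genes. Klrd1 was at 0 to 0.415 CPM in NSG and 15.5 to 27.8 CPM in Balb/c tumors.

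For the knockout effect on Fasl, the Balb/c clones were higher than the Balb/c wild-type lines without overlap, and the test was not passed. The log2 fold change was 0.77 ± 0.29 (SE), with an adjusted p of 0.125 in edgeR's test. In NSG the 2 counts of the clones against the 10 of the wild-type lines gave a ratio of 0.273 with an exact 95% interval of 0.0291 to 1.28, so no difference was detectable at this depth. The difference of the knockout effect between hosts had a fitted log2 value of 2.55 ± 0.86 (SE), an unadjusted p of 0.0184 and an adjusted p of 0.152 in edgeR's test. That value rests on the 2 NSG knockout libraries and ran from 1.58 without clone 69 in NSG to 6.18 without clone 54 in NSG.

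Tnfsf10 (ENSMUSG00000039304; chromosome 3, 27317028 to 27342427) encodes TRAIL, the ligand of the death receptor Tnfrsf10b. Its level was 3.39 and 4.55 CPM in NSG wild type, 7.27 and 8.05 CPM in NSG knockout, 13.9 and 22.8 CPM in Balb/c wild type, and 27.2 and 23.0 CPM in Balb/c knockout. No group overlapped another, and in each host the knockout libraries were above the wild-type libraries. Unlike Fasl, it was well above the level of 3 counts in all 4 NSG libraries.

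Tnfsf10 rose in the Balb/c host by 2.21 ± 0.30 (SE) on the log2 scale in wild-type tumors and by 1.71 ± 0.29 in knockout tumors, with adjusted p of 0.00329 and 0.00441 in edgeR's test. It was higher in the knockout clones by 0.95 ± 0.31 in NSG and 0.45 ± 0.28 in Balb/c, and neither passed the test (adjusted p of 0.271 and 0.303, edgeR). The difference of the knockout effect between hosts was -0.50 ± 0.41, with an adjusted p of 0.495 in edgeR's test.

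Fas (ENSMUSG00000024778; chromosome 19, 34290666 to 34327772), the targeted gene, was read in every library. Its level was 33.85 and 22.6 CPM in NSG wild type, 29.5 and 12.9 CPM in NSG knockout, 51.6 and 46.9 CPM in Balb/c wild type, and 27.1 and 33.7 CPM in Balb/c knockout. The Balb/c knockout libraries lay below the Balb/c wild-type libraries, and the NSG groups overlapped. The counts cover the whole gene, the edited site is not given in the sources used here, and host cells contribute Fas, so these values do not check the knockout labels.

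The knockout effect on Fas was -0.70 ± 0.36 (SE) on the log2 scale in Balb/c and -0.42 ± 0.37 in NSG, with adjusted p of 0.225 and 0.628 in edgeR's test. In NSG the sign depended on clone 69, whose omission gave 0.06 and that of clone 54 -1.13. Over both hosts the effect was -0.56 ± 0.26 with an adjusted p of 0.309 in edgeR's test. Relative to the 8 epithelial markers, Fas was 3.01% and 1.56% of their summed CPM in NSG wild type, 0.936% and 0.592% in NSG knockout, 6.81% and 2.49% in Balb/c wild type, and 3.78% and 0.866% in Balb/c knockout. On this scale, which was chosen after the values were seen and not tested, the NSG groups did not overlap and the Balb/c groups did.

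The host effect on Fas was 0.80 ± 0.36 in wild-type tumors and 0.52 ± 0.37 in knockout tumors, with adjusted p of 0.123 and 0.315 in edgeR's test. In wild-type tumors it passed the test when only the 4 libraries compared were fitted (0.87, adjusted p of 0.0170) and without either NSG knockout library (adjusted p of 0.0473 and 0.0472, edgeR). In knockout tumors it was 1.23 without clone 54 in NSG, where it was called with an adjusted p of 0.0349 in edgeR's test, and 0.04 without clone 69 in NSG. Whether Fas was called thus depended on which libraries entered the fit.

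The nearest profiles to that of Fas were those of Slfn2, Nfkbib and Il15, at root mean square differences of 0.15, 0.16 and 0.17 against a median of 0.77 over all genes. Nfkbib encodes an inhibitor of NF-kappaB, and Il15 a cytokine that sustains NK and memory T cells. Slfn2 was at 343.2 and 246.9 CPM in NSG wild type, 260.4 and 109.0 CPM in NSG knockout, 453.8 and 473.0 CPM in Balb/c wild type, and 249.4 and 382.1 CPM in Balb/c knockout. Like Fas, it was lowest in clone 69 grown in NSG.

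Tnfrsf10b (ENSMUSG00000022074; chromosome 14, 69767472 to 69784411), the mouse death receptor for TRAIL, was highest in NSG wild type and lowest in Balb/c knockout tumors. It was at 36.2 and 24.2 CPM in NSG wild type, 24.2 and 20.9 CPM in NSG knockout, 20.4 and 19.0 CPM in Balb/c wild type, and 7.24 and 14.4 CPM in Balb/c knockout. By group means its order was the reverse of that of its ligand Tnfsf10. The host difference was -1.07 ± 0.34 in knockout tumors, which passed the test (adjusted p of 0.0458, edgeR), and -0.62 ± 0.33 in wild-type tumors, which did not (adjusted p of 0.178, edgeR). The call in knockout tumors was lost in 9 of 15 alternatives, among them the omission of any single library except clone 69 in Balb/c, with adjusted p from 0.0586 to 0.1488 on those omissions in edgeR's test.

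Its knockout effect was -0.87 ± 0.34 in Balb/c and -0.42 ± 0.33 in NSG, with adjusted p of 0.129 and 0.579 in edgeR's test. Without clone 69 in Balb/c the former was -1.43 and was called (adjusted p of 0.0164, edgeR), and without clone 54 in Balb/c it was -0.56 and was not (adjusted p of 0.310, edgeR). Clone 54 in Balb/c, the lowest Tnfrsf10b library, also stood apart in markers of other cells, with 11480 CPM of macrophage markers against 3339 to 5204 CPM in the other Balb/c libraries and 548.6 CPM of neutrophil markers against 2665 to 7849 CPM. The part of these cells in the result was not tested.

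Tnfrsf1a (ENSMUSG00000030341; chromosome 6, 125349362 to 125362484) encodes TNF receptor 1. It was at 101.7 and 113.9 CPM in NSG wild type, 130.4 and 114.8 CPM in NSG knockout, 178.1 and 203.5 CPM in Balb/c wild type, and 148.6 and 185.2 CPM in Balb/c knockout. All Balb/c libraries were above all NSG libraries. The host difference was 0.82 ± 0.18 in wild-type tumors (adjusted p of 0.0145, edgeR) and 0.44 ± 0.18 in knockout tumors (adjusted p of 0.0975, edgeR). The call was lost with the replicate block (adjusted p of 0.0563) and without any 1 of the 4 wild-type libraries (adjusted p from 0.0595 to 0.1075, edgeR). The knockout effect was 0.19 ± 0.18 in NSG and -0.19 ± 0.18 in Balb/c, neither past the threshold in edgeR's test.

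Among the adaptors, Ripk1 (ENSMUSG00000021408; chromosome 13, 34002363 to 34037147), the kinase at the fork between survival and death signals, rose in the Balb/c host in both genotypes. Its level was 88.6 and 76.3 CPM in NSG wild type, 65.1 and 64.9 CPM in NSG knockout, 163.2 and 163.2 CPM in Balb/c wild type, and 129.4 and 147.8 CPM in Balb/c knockout. The hosts did not overlap. The host difference was 0.98 ± 0.16 (SE) on the log2 scale in wild-type tumors and 1.09 ± 0.16 in knockout tumors, with adjusted p of 0.00535 and 0.00231 in edgeR's test. Of all alternatives only the omission of the vCas9 library in NSG ended a call, that in wild-type tumors (adjusted p of 0.0534, edgeR).

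The clones had less Ripk1 than the wild-type lines in each host, by -0.34 ± 0.16 in NSG and -0.24 ± 0.15 in Balb/c, and neither passed the test (adjusted p of 0.371 and 0.327, edgeR). Ripk1 overlaps Serpinb6a in the annotation, and since the strand setting of the counting is not given, its reads and those of its neighbour may not be fully separated.

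Fadd (ENSMUSG00000031077; chromosome 7, 144577318 to 144582463), the adaptor that links the receptors to caspase-8, stayed between 4.78 and 10.57 CPM in all libraries. It was at 5.88 and 9.27 CPM in NSG wild type, 10.05 and 8.65 CPM in NSG knockout, 5.77 and 4.78 CPM in Balb/c wild type, and 10.57 and 7.87 CPM in Balb/c knockout. The Balb/c wild-type tumors held the least. No comparison called it: the host effect was -0.52 ± 0.31 in wild-type and -0.02 ± 0.31 in knockout tumors, and the knockout effect was 0.31 ± 0.31 in NSG and 0.81 ± 0.31 in Balb/c (adjusted p of 0.227, 0.974, 0.674 and 0.128, edgeR).

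Casp8 (ENSMUSG00000026029; chromosome 1, 58795374 to 58847503), the initiator caspase of this pathway, spanned the narrowest range of the 9 genes over the libraries as a ratio of highest to lowest level. It was at 83.5 and 88.7 CPM in NSG wild type, 79.9 and 83.4 CPM in NSG knockout, 99.2 and 110.5 CPM in Balb/c wild type, and 106.5 and 98.4 CPM in Balb/c knockout. All Balb/c libraries were above all NSG libraries by a small margin. The host difference was 0.29 ± 0.15 in wild-type and 0.33 ± 0.15 in knockout tumors, and the knockout effect -0.08 ± 0.15 in NSG and -0.03 ± 0.15 in Balb/c, none past the threshold in edgeR's test.

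Cflar (ENSMUSG00000026031; chromosome 1, 58711508 to 58758884), which encodes the caspase-8 inhibitor cFLIP and lies beside Casp8, had the smallest unadjusted p of all members in the knockout comparison over both hosts. It was at 313.5 and 269.0 CPM in NSG wild type, 214.7 and 166.5 CPM in NSG knockout, 465.4 and 466.3 CPM in Balb/c wild type, and 235.2 and 293.2 CPM in Balb/c knockout. In each host both clones were below both wild-type lines. Of the Balb/c knockout libraries, clone 69 lay between the NSG wild-type libraries and clone 54 below both. Marker sums of other cells also differed between clones and wild-type lines in each host, in directions that varied with the cell type and the host. In Balb/c the 10 neutrophil markers summed to 7849 and 6231 CPM in wild type and 548.6 and 2665 CPM in knockout tumors, and the 10 macrophage markers to 3339 and 3731 CPM against 11480 and 5204 CPM. The Balb/c clones were also higher in adipocyte markers (200.4 and 267.1 against 38.6 and 84.6 CPM) and endothelial markers (502.1 and 451.2 against 182.1 and 257.5 CPM), without overlap. In NSG the neutrophil sums overlapped between genotypes, at 1381 and 1738 CPM in wild type and 3261 and 1528 CPM in knockout tumors. The NSG clones were lower in macrophage markers (3330 and 3242 against 4968 and 5130 CPM), dendritic cell markers (26.7 and 32.1 against 70.7 and 53.7 CPM) and T cell markers (6.42 and 8.55 against 12.04 and 13.0 CPM), without overlap. They were higher in epithelial markers (3154 and 2182 against 1125 and 1452 CPM) and fibroblast markers (33480 and 29240 against 17460 and 25530 CPM), without overlap. The part of these cells in the Cflar values was not tested.

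The knockout effect on Cflar was -0.61 ± 0.21 (SE) on the log2 scale in NSG, -0.82 ± 0.21 in Balb/c and -0.72 ± 0.16 over both hosts. None passed edgeR's test, with adjusted p of 0.286, 0.0636 and 0.194, while the unadjusted p over both hosts was 0.00164. In Balb/c the gene was called lower by DESeq2 (-0.91, adjusted p of 0.00253), without the filter on low counts (-0.89, adjusted p of 0.0278) and without clone 69 (-0.98, adjusted p of 0.0225), and over both hosts it was called by DESeq2 (-0.77, adjusted p of 0.00133). The effect did not differ detectably between hosts, at -0.21 ± 0.29 and an adjusted p of 0.703 in edgeR's test.

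The host effect on Cflar was 0.68 ± 0.21 in wild-type tumors (adjusted p of 0.0412, edgeR) and 0.47 ± 0.21 in knockout tumors (adjusted p of 0.121, edgeR). The former was lost with the replicate block (adjusted p of 0.118), with scaling by total counts (adjusted p of 0.0650) and without any 1 of the 4 wild-type libraries (adjusted p from 0.1217 to 0.2163, edgeR).

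**Figure D3:**
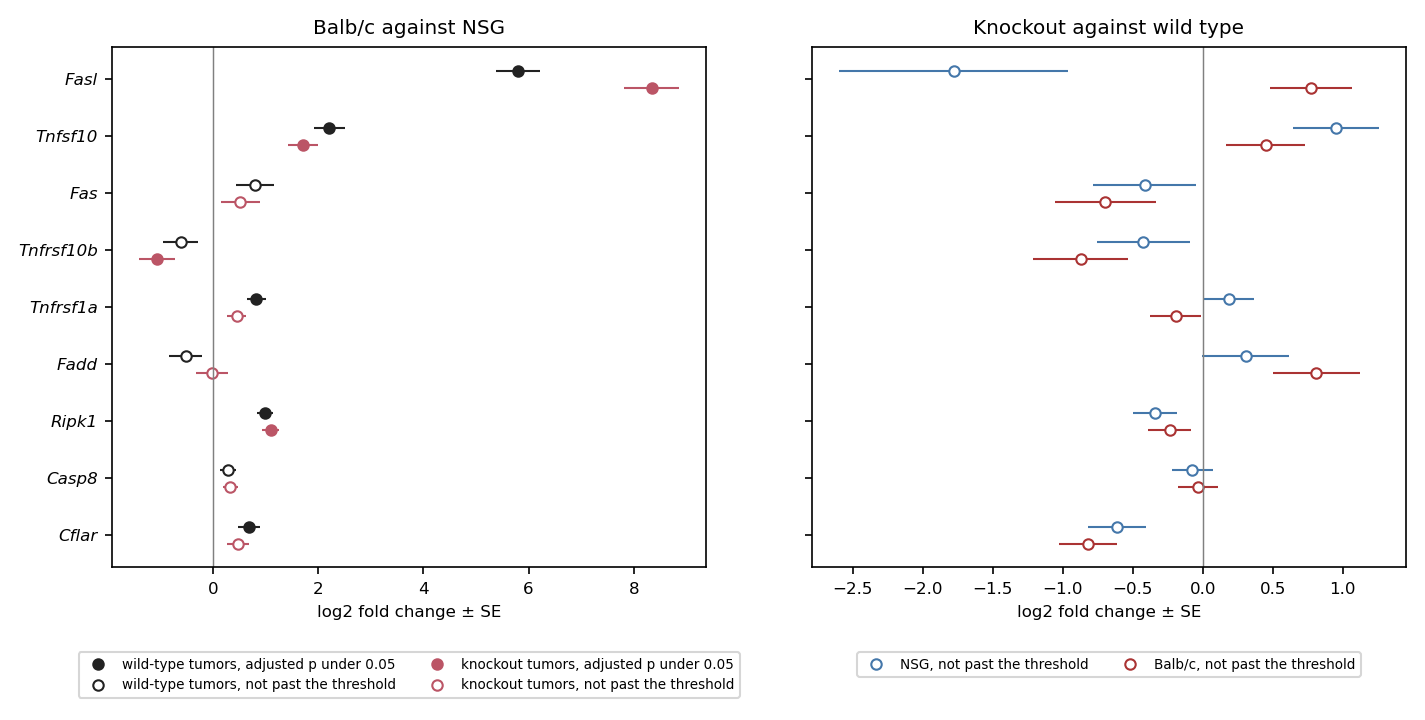
Fitted log2 fold change ± SE (x axes) of the 9 genes (rows) for Balb/c against NSG (left) and for knockout against wild type (right), filled where the adjusted p in edgeR's test was under 0.05; the Fasl values that involve NSG knockout tumors rest on 2 counts. Fasl, Tnfsf10 and Ripk1 are filled in both genotypes on the left, no gene is filled on the right, and Cflar lies at -0.61 and -0.82 there.

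The ratio of Cflar to Casp8 counts within a library does not depend on depth or scaling. It was 3.755 and 3.03 in NSG wild type, 2.69 and 1.996 in NSG knockout, 4.69 and 4.22 in Balb/c wild type, and 2.21 and 2.98 in Balb/c knockout. In each host both clones had a lower ratio than both wild-type lines. The mean log2 difference within hosts was -0.67. The exact two-sided permutation test within hosts gave a p of 0.0556, the smallest its 36 regroupings allow, so the design could not pass 0.05. The regroupings treated the libraries of each host as separate, although the same lines were grown in both hosts. The ratio was chosen after its values were seen, and this p supports nothing beyond the order of the libraries. The counts are per gene, so the isoforms of cFLIP were not told apart.

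**Figure D4:**
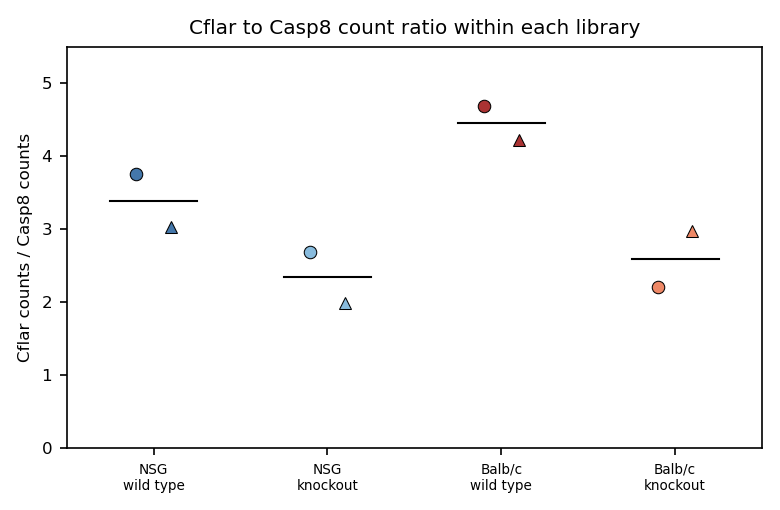
Ratio of Cflar counts to Casp8 counts (y axis, from 0) within each library, by group (x axis); circles are the parental line or clone 54, triangles the vCas9 line or clone 69, and bars means of 2. The wild-type libraries lie at 3.755 and 3.03 in NSG and 4.69 and 4.22 in Balb/c, above the knockout libraries of the same host.

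Neither knockout comparison called a member in edgeR's test. In NSG 0.0131% of all genes were called (2 genes), and 2 of 9 members (Tnfsf10 and Cflar) had an unadjusted p under 0.05, as did 14.0% of all genes. In Balb/c 0.176% of all genes were called (27 genes), and 4 of 9 members (Fasl, Tnfrsf10b, Fadd and Cflar) had an unadjusted p under 0.05, as did 30.9% of all genes. DESeq2 called 0 members in NSG and 1, Cflar, in Balb/c, where it called 2.27% and 15.0% of the genes to which it gave an adjusted p. Groups did not overlap for 7 of 9 members in each host, against 52.6% of all genes in NSG and 62.2% in Balb/c. The test over both hosts and the test of the difference between hosts called 0 of 9 members and 0.0% of all genes, with 5 and 1 members at an unadjusted p under 0.05 where 17.3% and 22.5% of all genes were. DESeq2 called 1 and 0 members in these, and 4.5% and 6.92% of the genes to which it gave an adjusted p.

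Per kilobase of exon, which allows levels to be compared between genes, Tnfrsf1a was the highest member in all 4 groups, from 41.6 ± 3.34 CPM per kb (SD, n = 2) in NSG wild type to 73.6 ± 6.95 in Balb/c wild type. Casp8 and Cflar followed. They were 29.8 ± 1.27 and 23.0 ± 2.48 CPM per kb in NSG wild type, and within 1 SD of each other in Balb/c wild type, at 36.3 ± 2.76 and 36.8 ± 0.0495. Fas held rank 4 in every group except Balb/c knockout, where it held rank 6 at 14.7 ± 2.25, close to Ripk1 at 16.6 ± 1.56 and Fasl at 18.9 ± 1.94. Fasl was last in both NSG groups and held rank 6 in Balb/c wild type and rank 4 in Balb/c knockout. The length used is that of all annotated exons joined, which is long for Cflar (12669 bases) and Ripk1 (8344 bases) and lowers their values on this scale.

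Of 42 other genes of death receptor signaling, 12 were called between hosts in wild-type tumors (8 higher and 4 lower in Balb/c) and 18 in knockout tumors (14 higher and 4 lower). Over all genes 31.5% and 31.1% were called, so the count in wild-type tumors was near the background. The median log2 fold change over the 42 genes was 0.38 and 0.49, against -0.08 and 0.02 over all genes. The genes called in both genotypes, all in the same direction, made up 75.0% of the wild-type and 50.0% of the knockout calls. Birc2, Birc3, Cyld, Daxx, Ltb, Mlkl, Tnfaip3 and Tnfrsf12a were among them. Here too the matching shares over all genes were not computed. With the replicate block 3 genes in wild-type tumors (Birc2, Cyld and Ltb) and 10 in knockout tumors were called. In wild-type tumors the count was 2 or 3 without any 1 of the 4 wild-type libraries and 19 without clone 54 in Balb/c. In knockout tumors it was 6 without clone 69 in NSG and 11 without either wild-type library in NSG. The calls over all genes moved with these omissions. In wild-type tumors they were 858 to 1482 without any 1 of the 4 wild-type libraries and 6165 without clone 54 in Balb/c, against 4825 with all libraries. In knockout tumors they were 2461 without clone 69 in NSG and 3794 or 3809 without a wild-type library in NSG, against 4757.

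Among the other ligands, Ltb, which encodes the lymphotoxin beta chain made by lymphocytes, rose most. It was at 1.25 and 2.07 CPM in NSG wild type, 5.88 and 2.19 CPM in NSG knockout, 22.9 and 23.3 CPM in Balb/c wild type, and 39.0 and 36.2 CPM in Balb/c knockout, so that the hosts did not overlap. Its log2 fold change was 3.81 ± 0.44 in wild-type and 3.23 ± 0.42 in knockout tumors (adjusted p of 0.00197 and 0.00156, edgeR). Tnfsf15, which encodes the ligand TL1A, fell by 2.15 ± 0.62 in wild-type tumors (adjusted p of 0.0337, and of 0.0801 with the replicate block, edgeR) at group means of 0.397 to 1.85 CPM. Tnf itself was not called, at 0.90 ± 0.55 and 1.43 ± 0.55 (adjusted p of 0.230 and 0.0848, edgeR).

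Of the 11 inhibitors and ubiquitin regulators of the pathway, 4 were called higher and 0 lower in wild-type tumors and 7 higher and 0 lower in knockout tumors, where 15.3% and 15.7% of all genes were called higher. These counts by role were not tested. Beside the T cell and NK markers given above, the sum of the 7 dendritic cell markers was higher in the Balb/c host (26.7 to 70.7 against 110.9 to 267.0 CPM). So was that of the 6 B cell markers (3.74 to 6.13 against 30.6 to 190.8 CPM), and in wild-type tumors that of the 10 neutrophil markers (1381 to 1738 against 6231 to 7849 CPM). Called higher in wild-type tumors were 5 of 7 dendritic, 6 of 6 B cell and 6 of 10 neutrophil markers. In knockout tumors 6 of 7 dendritic, 3 of 6 B cell and 1 of 10 neutrophil markers were called higher. There 1 neutrophil marker was called lower. Of the 10 macrophage markers, 1 was called higher and 2 lower in wild-type tumors, and 7 higher and 0 lower in knockout tumors. The part of these cells in the values of the inhibitors was not tested. Cyld, a deubiquitinase that trims the chains on RIPK1, rose by 1.75 ± 0.28 and 1.44 ± 0.28, and its level went from 76.4 to 89.6 CPM in the NSG libraries to 166.1 to 310.4 CPM in the Balb/c libraries. Tnfaip3, which encodes the ubiquitin-editing enzyme that restrains NF-kappaB, rose by 1.39 ± 0.34 and 1.47 ± 0.34. Birc3 and Birc2, which encode the cellular inhibitors of apoptosis that ubiquitinate RIPK1, rose by 1.44 ± 0.34 and 1.06 ± 0.24 in wild-type and by 1.13 ± 0.34 and 1.05 ± 0.24 in knockout tumors. In knockout tumors the calls also held Otulin (0.97 ± 0.21), Sharpin (0.80 ± 0.15) and Rbck1 (0.48 ± 0.14), which act on linear ubiquitin chains. With the replicate block the calls of Tnfaip3 and Birc3 were lost in both genotypes (adjusted p of 0.0671 and 0.0718 in wild-type, 0.0521 and 0.1238 in knockout tumors, edgeR), as was that of Rbck1 in knockout tumors (adjusted p of 0.1074, edgeR). Cyld and Birc2 in both genotypes and Otulin and Sharpin in knockout tumors were called with the block as well.

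Of the necroptosis genes, Mlkl, the membrane-permeabilizing effector, fell by 0.76 ± 0.20 in wild-type and 0.71 ± 0.20 in knockout tumors. Zbp1, a sensor that engages RIPK3, rose in wild-type tumors by 1.76 ± 0.44, and Ripk3 rose in knockout tumors by 0.98 ± 0.20. With the replicate block Ripk3 was called in knockout tumors, and Mlkl and Zbp1 in neither genotype.

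Of the 8 other receptors, 2 were called lower and 0 higher in wild-type tumors, and 3 lower and 1 higher in knockout tumors, where 31.5% and 31.1% of all genes were called in either direction. The 7 fibroblast markers summed to 17460 to 33480 CPM in NSG and 3964 to 12830 CPM in Balb/c tumors. Of them, 1 was called lower in Balb/c in wild-type and 6 in knockout tumors. Of all 15310 genes, 2481 and 2354 were called lower in these comparisons. Of the 6 adipocyte markers, 3 were called lower in wild-type and 5 in knockout tumors. Of the 7 endothelial markers, 2 were called lower in wild-type tumors and 1 higher in knockout tumors. The part of these cells in the receptor values was not tested. Tnfrsf12a, the receptor of TWEAK, fell in the Balb/c host by 1.43 ± 0.34 in wild-type and 1.08 ± 0.34 in knockout tumors, from means of 148.0 and 97.9 CPM in NSG to 54.8 and 46.5 CPM in Balb/c. Its call was lost with the replicate block in both (adjusted p of 0.0543 and 0.0756, edgeR). In knockout tumors Tnfrsf11b, which encodes the soluble decoy receptor osteoprotegerin, fell by 2.44 ± 0.56, Tnfrsf22, a TRAIL decoy receptor, fell by 1.19 ± 0.33, and Tnfrsf21, a receptor with a death domain, rose by 0.90 ± 0.22. In wild-type tumors Ltbr, the lymphotoxin beta receptor, fell by 0.62 ± 0.19. With the replicate block Tnfrsf11b, Tnfrsf22 and Tnfrsf21 were still called in knockout tumors, and the call of Ltbr was lost (adjusted p of 0.1006, edgeR).

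**Figure D5:**
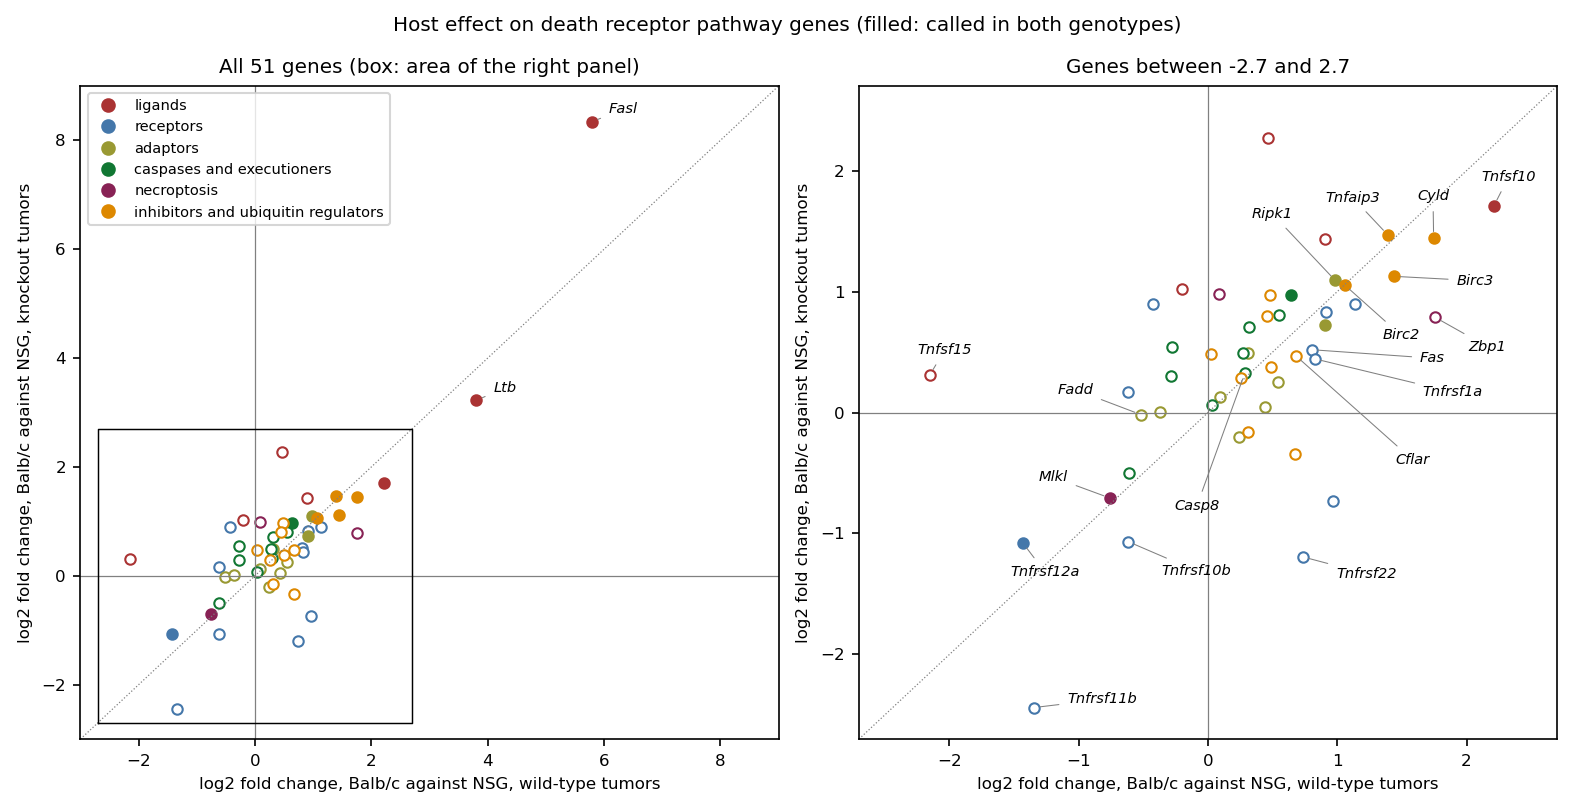
Log2 fold change of Balb/c against NSG in wild-type tumors (x axis) and knockout tumors (y axis) for the 9 genes and 42 other pathway genes, coloured by role and filled where called in both genotypes; the right panel enlarges the boxed area and the dotted line marks equal values. Fasl and Ltb lie farthest out, and the filled inhibitor genes Cyld, Tnfaip3, Birc3 and Birc2 lie near the dotted line between 1.05 and 1.75.

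CD95 status called none of these 42 genes in edgeR's test in either host. In NSG 4 of 42 had an unadjusted p under 0.05, where 14.0% of all genes did, and DESeq2 called 0. In Balb/c 11 of 42 did, where 30.9% of all genes did, and DESeq2 called 5. Without clone 69 in Balb/c edgeR's test called 10 of 42, and 3886 of all 15697 genes then tested. Those nearest to the threshold, named after their values were seen, were all receptors. The TRAIL decoy receptor genes Tnfrsf22 and Tnfrsf23 were lower in the Balb/c clones, at -1.50 ± 0.33 and -1.74 ± 0.42 (adjusted p of 0.0570 and 0.0599, edgeR). In Balb/c mice Tnfrsf23 had a mean of 93.2 ± 8.73 CPM (SD, n = 2) in wild-type tumors against 28.1 ± 18.3 CPM in the clones. Tnfrsf21 and Ltbr were higher, at 0.92 ± 0.22 and 0.78 ± 0.19 (adjusted p of 0.0587 and 0.0614, edgeR).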

How the data were processed

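Gene-level counts were analysed for 8 libraries of total RNA from 4T1 tumors, in 4 groups of 2. The deposited values are raw counts per Ensembl gene. Per the submitters' processing notes the tools were cutadapt 1.13, STAR, HTSeq 0.6.1p1 and DESeq2 and the builds mm10 and hg19, with no role or order given; the annotation, the strand setting and any filter are not given in the sources used here. Symbols were matched for 24942 of 25006 identifiers, and positions and exon lengths come from GENCODE M21 (GRCm38).

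Counts were fitted in R 4.3.3 with edgeR 4.0.16 (TMM scaling, filterByExpr, quasi-likelihood test, 4 group means, 4 residual degrees of freedom). The common biological coefficient of variation was 0.244. For the knockout effect over both hosts, host entered as an additive term, which left 5 residual degrees of freedom. The Benjamini-Hochberg adjustment ran over 15310 genes, with a threshold of 0.05. CPM were computed from the counts with TMM-scaled totals, and profiles compared as log2 CPM with a prior count of 2.

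Lines were paired across hosts through their names in the sample titles. The differences between the lines of a group correlated between hosts at r = 0.09 in wild-type and -0.35 in knockout tumors over 15310 genes. DESeq2 1.42.0, other scalings, no filter, fewer libraries and the replicate block were tried as alternatives.

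The 9 members and all lists were chosen with earlier results of these data known. Of 43 other pathway genes listed, 42 were found. Among these, up to 6 per direction and comparison with the largest log2 fold change past the threshold were to be named, and others in the text were named after their values were seen. The result for 1 of the pathway genes is not reported here. For Fas and Fasl the 3 nearest profiles were named.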

Additional observations from a re-analysis of the deposited data

How the results depend on the processing

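Over the 719 alternative values of the 9 genes, 673 kept their direction and their side of the threshold, 21 lost a call, 9 gained one and 16 changed sign, none of the last a called value. With the line as a replicate block, the host comparison in wild-type tumors called 3 members instead of 5, 3 pathway genes instead of 12 and 2073 of all genes instead of 4825; in knockout tumors it called 10 pathway genes instead of 18 and 2878 of all genes instead of 4757. The block changed no member's call other than those given beside the results. Because the clones' differences correlated negatively between hosts, a crossed pairing of clones 54 and 69 was added after seeing the data and called 4 members, 21 pathway genes and 5436 of all genes. This pairing goes against the line names in the sample titles and was picked from that correlation, so its counts support no call. It is among the 15 alternatives given for the knockout tumors.

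With only the 4 libraries compared, the pathway calls were 23 of 40 in wild-type and 5 of 42 in knockout tumors, and calls over all genes were 6838 of 14632 between hosts in wild-type and 2450 of 14603 in knockout tumors, 1 for the knockout effect in NSG (2 in the main test) and 0 in Balb/c (27). Without the low-count filter the knockout effect called 133 genes in NSG, 1774 in Balb/c and 14 over both hosts, and its host difference 674; among them were 1 member and 4 pathway genes in Balb/c and 3 pathway genes for the difference. DESeq2 called 336, 2162, 683 and 966 genes, with 1 member and 5 pathway genes in Balb/c, 1 member and 2 pathway genes over both hosts and 3 pathway genes for the difference. RLE scaling gave 94 genes in Balb/c. The cause was not tested.

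Leaving out 1 library at a time gave, for the host effect in wild-type tumors, 2 to 6 members, 2 to 19 pathway genes and 858 to 6361 genes; in knockout tumors 3 to 4, 6 to 18 and 2461 to 4640. For the knockout effect it gave 0 members, 0 pathway genes and 0 to 1 genes in NSG, 0 to 2, 0 to 10 and 0 to 3886 in Balb/c, and 0, 0 and 0 to 2 over both hosts; for its host difference 0, 0 to 5 and 0 to 2370. The highest counts in Balb/c and for the difference came without clone 69 in Balb/c.

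Of the values that changed sign, none was called. On leaving out 1 library, Fadd ran from -0.27 to 0.18 between hosts in knockout tumors, Fas from -1.13 to 0.0597 for the knockout effect in NSG and -0.75 to 0.44 for its host difference, Casp8 from -0.19 to 0.0292 in Balb/c and -0.13 to 0.11 for the difference, and Tnfrsf1a from -0.0775 to 0.0624 over both hosts. Scaling by total counts gave a knockout effect on Casp8 of 0.0063 in NSG, 0.0126 in Balb/c and 0.0095 over both hosts and on Tnfrsf1a of 0.0557 over both hosts. The host difference for Casp8 was -0.0372 with RLE scaling, -0.0259 without the filter and -0.0261 in DESeq2.

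Total-count scaling moved the median log2 host effect of all genes from -0.08 to -0.24 in wild-type and from 0.02 to -0.17 in knockout tumors, and the share of higher calls from 48.6% to 36.5% and from 50.5% to 37.3%; RLE scaling gave 57.9% in wild-type tumors. With 2 libraries a group, and at most 5 counts of Fasl in an NSG library, an effect of CD95 status on the ligand in NSG mice was not detectable at this depth.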
